A study of Mus musculus with 180 samples.

Results

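Cytosolic ribosomal proteins build the ribosomes that translate nuclear-encoded mRNA. Their genes were taken from the deposited table by symbol alone: Rpl or Rps with a number and at most a short suffix, Rplp0, Rplp1, Rplp2 and Rpsa, with names marked as pseudogenes left out. The rule found 84 of the 13820 genes in the table, 49 of the large and 35 of the small subunit, and no measured value entered it. All 84 passed the filter on low signal in each of the 15 tissues. Rps3a2 and Rps3a3 are listed as processed pseudogenes in the GENCODE M21 annotation, and Rps4l as a transcribed processed pseudogene, but their symbols meet the rule. Another 6 rows were named as pseudogenes of ribosomal proteins and are not members. Many members have near-identical processed copies in the genome, and the sources used here do not say how the counting treated reads shared between copies. Levels of such members are uncertain.

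The study collected 15 tissues from each of 12 female mice aged 6 weeks, perfused with PBS and EDTA, at 12 hours. Mice 1 to 4 were C57BL/6J given PBS, and mice 5 to 8 were C57BL/6J given 5 mg/kg lipopolysaccharide (LPS), the outer membrane component of Gram-negative bacteria. Mice 9 to 12 were B6.129S-Tnftm1Gkl/J, a strain with a targeted allele of the cytokine gene Tnf, given the same LPS dose, and are called TNFKO LPS below. No TNFKO mice without LPS were part of the labels, and the allele, linked 129 sequence and a changed response to LPS cannot be told apart. The LPS mice enter both comparisons, LPS against PBS and TNFKO LPS against LPS, so a high or low value in them moves both, in opposite directions. Each library was 1 whole tissue of 1 mouse, and the mice are the replicates.

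Libraries were primed at the poly(A) tail and report the 3′ end of each transcript. They held 311128 to 2573806 counts, and all 270 pairs of replicates within a group differed by more than counting error (chi-squared over its degrees of freedom of at least 1.15). Values are the authors' scaled signal, in which 1 count was worth 0.322 to 3.6 units. Of the 15 tissue marker lists, 14 were highest in their own tissue with no overlap. The exception was white fat, whose list overlapped with that of brown fat (20761 to 32850.0 in white fat and 22226 to 32898 in brown fat of the PBS mice). The 3′ tag of Tnf was higher in all 4 TNFKO LPS mice than in all 4 LPS mice in 12 of 15 tissues and overlapped in 3. The labels do not say which part of the gene the allele removes, so this tag does not check the genotype.

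Ribosomal protein mRNAs are among the most abundant of a cell, and most of them start with a run of pyrimidines right at the cap, the terminal oligopyrimidine or TOP motif. Through this motif the kinase complex mTORC1 and the RNA-binding protein Larp1 control how much of the mRNA is translated and how much is stored, largely without a change in its amount. The proteins enter new ribosomes in the nucleolus in near-equal numbers, while a few have paralogues that are made in particular tissues or under stress, and a few act outside the ribosome. In infection, immune cells that start to divide raise ribosome production, and the liver produces large amounts of acute-phase proteins.

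RefSeq promoter sequence (GRCm38.p6) was matched for 61 of the 84 members. The windows below cover 15 bases before and 15 bases from the annotated start, 5′ to 3′ on the gene's strand. They are shown for some of the members whose values are described later. Capitals mark runs of C followed by at least 5 more C or T, searched on the gene's strand only.
Rps18 (chr17:33955651-33955680, minus strand): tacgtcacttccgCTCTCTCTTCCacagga
Rps6 (chr4:86857353-86857382, minus strand): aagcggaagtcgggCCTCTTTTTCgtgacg
Rps24 (chr14:24490663-24490692, plus strand): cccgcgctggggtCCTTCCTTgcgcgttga
Rpl12 (chr2:32961697-32961726, plus strand): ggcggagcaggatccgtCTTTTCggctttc
Rpl22l1 (chr3:28805493-28805522, plus strand): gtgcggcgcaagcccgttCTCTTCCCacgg
Rpl13a (chr7:45128731-45128760, minus strand): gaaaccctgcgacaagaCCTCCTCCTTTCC
Rps2 (chr17:24720048-24720077, plus strand): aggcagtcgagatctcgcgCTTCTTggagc
Rpl3l (chr17:24727811-24727840, plus strand): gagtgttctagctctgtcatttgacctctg
The window of Rpl3l, the form made in striated muscle, held no such run. Nor did the windows of other members described later, such as Rps25, Rpl27, Rpl10 and Rpl7l1, or a second window of Rps24. A run was present in at least 1 window of 35 of the 61 members (57.4%), of 27.5% of the other genes in the table that had a window, and of 25.5% of all 27025 genes with one. The position of a run depends on which start RefSeq annotates, so a match is a description of these letters and not a mapped cap site.

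In PBS mice the summed signal of the 84 members made up between 2.06% (median of 4 brain libraries) and 10.1% (spleen) of a library's signal. The other tissues rich in lymphocytes came next, the inguinal lymph node at 9.14% and the thymus at 7.89%. The liver stood at 2.42%, the heart at 2.49% and brown fat at 2.55%. This share is a fraction of the whole library, so it also moves when other abundant transcripts rise or fall, and in whole tissue fewer cells of a type and less RNA per cell cannot be told apart.

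After LPS the share was higher in all 4 LPS mice than in all 4 PBS mice in 5 tissues, lower in 1, and overlapped in 9. In brown fat it was 2.46% to 2.65% in PBS and 2.97% to 3.24% in LPS mice, a ratio of means of 1.21. In small intestine it was 3.84% to 4.24% in PBS and 4.77% to 5.08% in LPS mice, also a ratio of 1.21. Both tissues thus held the highest ratios of the 15. In bone marrow the share was 4.11% to 4.34% in PBS and 4.68% to 5.12% in LPS mice, a ratio of 1.15. In liver it was 2.34% to 2.53% in PBS and 2.59% to 3.01% in LPS mice, a ratio of 1.14. The colon had the smallest of the 5 separated rises, 5.85% to 6.21% against 6.45% to 6.82%, a ratio of 1.09. The lung was the tissue with a separated fall, with 4.07% to 4.24% in PBS and 3.74% to 3.86% in LPS mice, a ratio of 0.917. In heart the ratio was 1.17, but the groups overlapped slightly at 2.37% to 2.77% in PBS and 2.76% to 3.15% in LPS mice.

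Abundant transcripts of the tissue itself moved in the same libraries. In liver the summed liver marker list was 223140.0 to 250890.0 in PBS and 93952 to 133990.0 in LPS mice, with 8 of 8 genes lower. In heart the heart list was 38954 to 40363 in PBS and 23934 to 26451 in LPS mice, with 6 of 8 genes lower. In brown fat the brown fat list was 9817 to 16353 in PBS and 4185 to 10834 in LPS mice, with 7 of 8 genes lower. Liver and heart thus had less signal of their own marker genes without overlap, and in brown fat the list reached lower but overlapped. The ribosomal protein share was higher in liver and brown fat and overlapped slightly in heart. In bone marrow the neutrophil list was 20844 to 22281 in PBS and 14060.0 to 16856 in LPS mice, with 10 of 12 genes lower. In lung that list was 443 to 500.2 in PBS and 4410.2 to 4987 in LPS mice, with 11 of 12 genes higher, the reverse of bone marrow. Mitochondrially encoded transcripts took 11.9% to 13.3% of the small intestine libraries in PBS and 9.69% to 11.4% in LPS mice. The part of these shifts in the share was not tested.

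Between the genotypes the share overlapped in 13 tissues. In spleen it was narrowly higher in all 4 TNFKO LPS mice (10.85% to 11.5%) than in the LPS mice (9.76% to 10.84%). PBS spleens were at 9.79% to 10.6%. In thymus the share was lower (7.30% to 7.58%) than in LPS mice (7.64% to 7.76%), with PBS mice at 7.62% to 8.06%. In the same spleens the B cell list (10 genes) summed to 2555 to 2981 in PBS, 1102 to 1750.5 in LPS and 1726 to 1971 in TNFKO LPS mice. The neutrophil list summed to 986 to 2137 in LPS and 1987 to 2578 in TNFKO LPS spleens, and a proliferation list had 13 of 20 genes higher in TNFKO LPS. Both lists reached higher in TNFKO LPS than in LPS spleens, with overlap, and 5 of 10 B cell and 4 of 12 neutrophil genes were called higher. The thymus list summed to 3282 to 3497 in PBS, 1292 to 2136 in LPS and 2417 to 3026 in TNFKO LPS thymi. The part of these cell type markers in the shares was not tested.

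**Figure D1:**
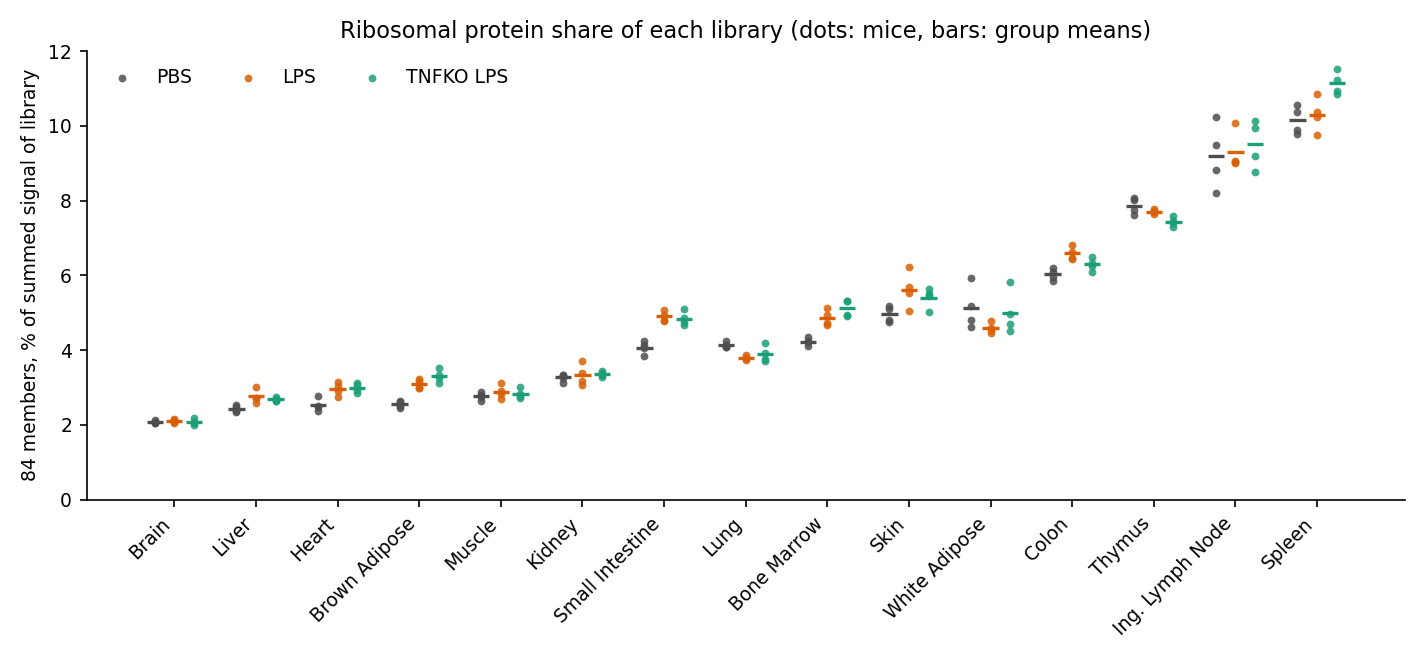
Share of a library's summed signal (percent, vertical axis) taken by the 84 cytosolic ribosomal protein genes in each of 15 tissues; each point is 1 mouse, coloured by group (PBS, LPS, TNFKO LPS; 4 mice each), and bars are group means. The spleen, lymph node and thymus sit highest and the brain lowest, and the LPS points lie above all PBS points in bone marrow, brown fat, colon, small intestine and liver and below them in lung.

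LPS raised individual ribosomal protein mRNAs more often than it lowered them. Over the 1260 tests (84 members in 15 tissues), 184 (14.6%) were higher in LPS than in PBS mice by limma at an adjusted p under 0.05, against a background of 9.47% of all gene tests. Only 23 (1.83%) were lower, against a background of 10.4%. The changes were small: the called ones had a median size of 0.35 on the log2 scale with a median SE of 0.094, the largest rise was 0.79 and the largest fall was -1.06. Of the 84 members, 66 were higher in at least 1 tissue, 16 were lower in at least 1, and 8 of these were called both ways. The 10 members never called were Rpl3l, Rpl7, Rpl21, Rpl26, Rpl28, Rpl36a, Rps3a3, Rps4x, Rps7 and Rps29. Large subunit members gave 97 higher and 10 lower calls in 735 tests, and small subunit members 87 and 13 in 525.

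Heart had the most members raised by LPS, 37 of 84, against 9.83% of all genes tested in heart. The median change of the members there was 0.21, with -0.06 over all genes. Rpl12, a protein at the base of the ribosomal stalk, had signals of 49.3, 55.1, 62.0 and 68.5 in PBS hearts (mice 1 to 4, in that order here and in the values that follow). In LPS hearts (mice 5 to 8) it had 85.6, 69.5, 92.6 and 73.3 (log2 difference 0.44, SE 0.14, adjusted p = 0.0178). The groups did not overlap, and the call was lost without some single mice (adjusted p = 0.0524 to 0.0787 without mouse 1, 2, 5 or 7). Rps20, a protein of the small subunit head, had 369, 329, 331 and 410.3 in PBS and 483, 472, 517 and 432 in LPS hearts (log2 difference 0.41, SE 0.085, adjusted p = 0.000597), again with no overlap. The other called heart members rose by 0.20 (Rps3a1) to 0.44 (Rpl10a, Rpl7a) on the log2 scale and included Rplp0 (0.35) and Rplp1 (0.28) of the stalk and Rpsa (0.34).

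In colon 28 members were higher, against 9.45% of all genes, with a median change of 0.18 (-0.016 over all genes). Rpl27, a large subunit protein, had 167, 191, 158 and 191 in PBS and 244, 237, 270.4 and 273 in LPS colons (log2 difference 0.54, SE 0.10, adjusted p = 0.000288), and the groups did not overlap. Rps2, whose protein lines the path of the mRNA into the small subunit, rose further there and is described with its neighbours later. Scaling the counts to their plain total in place of the authors' scaling left 17 colon members higher. A proliferation list had 14 of its 20 genes higher in the same colons, and its part in the result was not tested.

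In brown fat 24 members were higher, against 9.09% of all genes, with a median change of 0.24 (0.062 over all genes). Rps6, the target of the S6 kinases that act below mTORC1, had 303, 322, 337 and 339 in PBS and 462, 524, 517 and 484 in LPS mice (log2 difference 0.61, SE 0.093, adjusted p = 5.52e-05). Every LPS value lay above every PBS value. Rps23, a protein of the decoding centre, had 36.0, 55.2, 60.1 and 46.3 in PBS and 62.3, 92.6, 89.1 and 74.2 in LPS mice (log2 difference 0.69, SE 0.18, adjusted p = 0.00997). Rps18 had 82.9, 184, 159 and 132 in PBS and 214, 239, 189 and 200.0 in LPS mice (log2 difference 0.64, SE 0.17, adjusted p = 0.0109), and neither gene's groups overlapped. In PBS mouse 1, the lowest of its group for both genes, 1 count was worth 3.6 units, the most of any library. With 1 mouse left out both calls stayed, and the differences were lowest without this mouse (0.41 for Rps18 and 0.55 for Rps23). The brown fat of LPS mice 7 and 8 carried skeletal muscle markers (summed signal 9413 and 9329), whose part was not tested. Without both mice 16 members were higher in that smaller fit, against 5.15% of all genes. Without mouse 5 alone 14 were higher and without mouse 6 alone 15, and with counts scaled to their plain total 40 were.

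Bone marrow and liver each had 19 members higher, against 10.6% and 11.6% of all genes. The medians were 0.13 in bone marrow and 0.11 in liver, and those of all genes -0.023 and 0.059. In bone marrow the largest rises were those of Rps24 (0.48), Rpl36 (0.41) and Rpl38 (0.39), the last known for the control of Hox mRNA translation in embryos. In liver the largest were those of the paralogue members Rpl22l1 and Rpl7l1, described later, then Rpl12 (0.53), whose groups overlapped, and the stalk protein Rplp2 (0.48). Scaling to the plain total raised the bone marrow count to 30, and the liver count fell to 11 without mouse 3. In bone marrow a proliferation list had 11 of 20 genes lower, and its part was not tested.

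Skin, spleen and small intestine had 15, 15 and 9 members higher, against 9.45%, 8.04% and 9.92% of all genes. The skin median was 0.21 (-0.0085 over all genes), with 80 of 84 members above 0, but the number called was unstable. It was 3, 5, 7, 4, 25, 6 and 8 without mouse 2, 3, 4, 5, 6, 7 and 8, in that order, 25 by DESeq2, 23 by edgeR and 7 on the plain total. In spleen the largest rises were those of Rps2, Rps12 (0.50) and Rpl36 (0.50), and 3 members fell (7.75% of all genes), among them Rps24 and Rps27 (-0.34). In small intestine Rps2, Rpsa (0.42) and the pair Rpl5 (0.38) and Rpl11 (0.28) were among those raised. The small intestine count was 17 without mouse 2, 4 without mouse 4, 22 by DESeq2, 19 by edgeR, 20 with median-of-ratios factors and 52 on the plain total. That last scaling also moved the median of all genes by 0.14. Exocrine pancreas markers ranged from 142 to 2560.3 in the PBS small intestines, and without PBS mouse 1 the count was 10.

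In lung 8 members were lower, a smaller share than the 13.9% of all genes that were lower there, and 0 were higher by limma (against 11.7%). The median change was -0.067, close to that over all genes (-0.055). At an unadjusted p under 0.05, 2 were higher, and DESeq2 called 1 and edgeR 2. Rps21, a small subunit protein, had 899, 1014, 868 and 909 in PBS and 689, 646, 697 and 666 in LPS lungs (log2 difference -0.45, SE 0.12, adjusted p = 0.00492). Its groups did not overlap. The others included Rpl31 (-0.38), Rpl23a (-0.36, with overlap), Rpl22, Rps15 (-0.32), Rpl27a (-0.32) and Rpl10 (-0.31). The lung count was 4 without mouse 2, 5 without mouse 3, 5 or 8, and 20 on the plain total. The neutrophil list had 11 of 12 genes higher in these lungs, and its part was not tested.

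Kidney was split, with 7 members higher (16.2% of all genes) and 7 lower (21.9% of all genes), and a median of -0.017. Rpl12 (0.50), Rpl22l1 (0.49) and Rps20 (0.40) rose most. Rpl13a, which outside the ribosome takes part in the silencing of inflammatory mRNAs in macrophages, had 235, 244, 230.0 and 228 in PBS and 178, 195, 177 and 153 in LPS kidneys (log2 difference -0.42, SE 0.094, adjusted p = 0.000828). All 4 LPS values were below the PBS values. Rps19, mutated in Diamond-Blackfan anaemia, was lower in kidney (-0.19) and higher in heart (0.35). The kidney split depended on the scaling: with median-of-ratios factors 21 were higher, by DESeq2 17 higher and 4 lower, by edgeR 19 higher, and without mouse 6 12 were lower.

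The remaining tissues showed few calls. Inguinal lymph node had 4 members higher (9.97% of all genes) and 1 lower (12.6%), thymus 4 (9.7%) and 2 (8.83%), and white fat 1 (7.49%) and 1 (6.25%). Muscle had 2 higher (6.72%), Rps18 and Rpl3 (0.38), and 0 lower by limma (5.76% of all genes), with 3 lower at an unadjusted p under 0.05 and 0 by DESeq2 and edgeR. Brain had 0 in either direction by limma, DESeq2 and edgeR, with 0 higher and 2 lower at an unadjusted p under 0.05, where 4.35% of all genes were called. In bone marrow, colon, heart and skin 0 members were lower by limma, by DESeq2, by edgeR or at an unadjusted p under 0.05, against 12.3%, 7.76%, 12.3% and 8.46% of all genes. In brown fat 0 were lower by limma, 1 at an unadjusted p under 0.05 and 1 by edgeR (9.28% of all genes). In liver these numbers were 0, 2 and 0 (13.5%). In small intestine 1 member fell (13.4% of all genes), Rps4l.

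**Figure D2:**
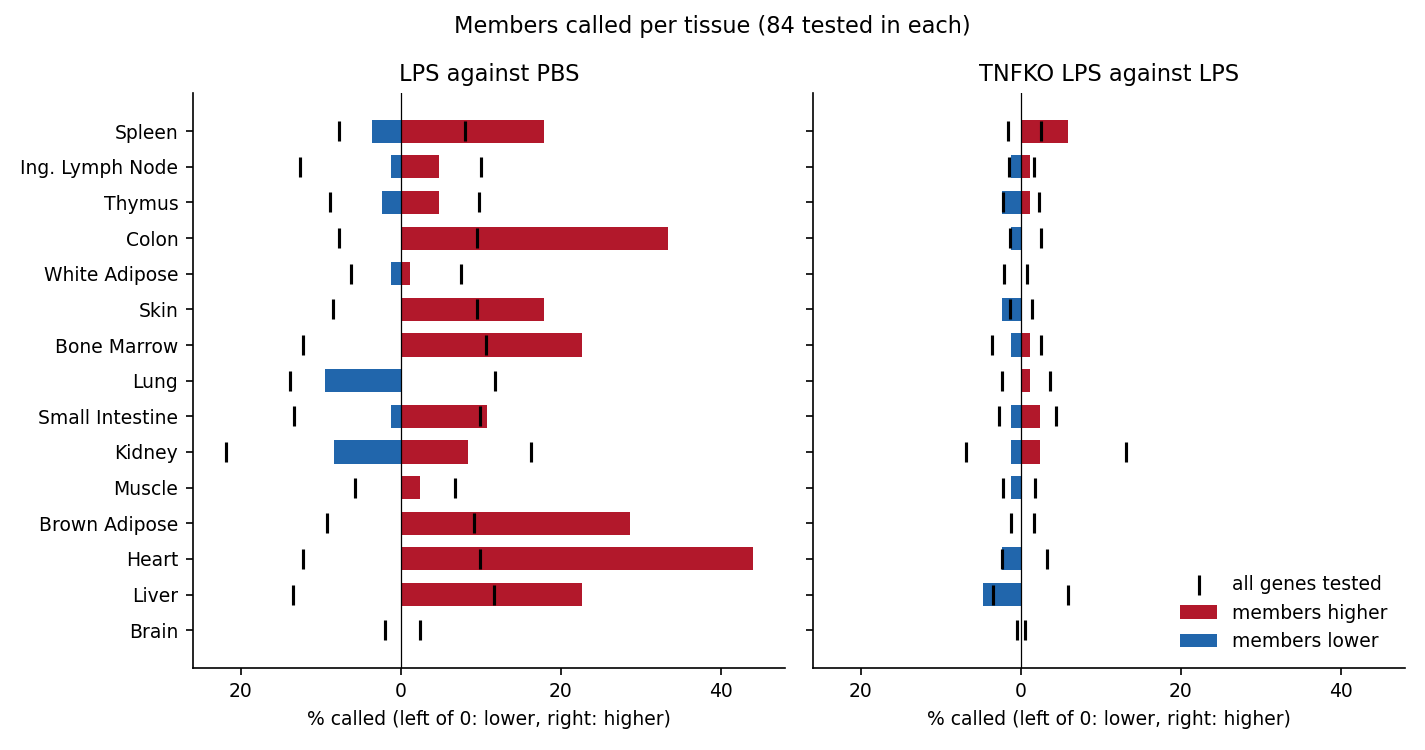
Percent of the 84 members called in each tissue (horizontal axes; lower to the left of 0, higher to the right), for LPS against PBS and TNFKO LPS against LPS mice; black ticks mark the percent of all tested genes called in that direction. Heart, colon and brown fat have the longest bars for LPS (37, 28 and 24 members higher), and in the lung the bar for higher members is empty.

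The members raised in the most tissues were all of the small subunit. Rps20 was higher in 9 tissues, Rps18 in 8, Rps25 in 7 and Rps6 and Rps24 in 6 each. Their changes were above 0 in 13, 14, 14, 14 and 9 of the 15 tissues, with medians of 0.33, 0.26, 0.24, 0.23 and 0.19. In inguinal lymph node Rps20 had 954, 1061, 1070.0 and 1113 in PBS and 1472, 1424, 1631 and 1585 in LPS mice (log2 difference 0.54, SE 0.097, adjusted p = 0.000327). In brown fat it had 342, 451, 433 and 428 in PBS and 586, 566, 546 and 529 in LPS mice (log2 difference 0.44, SE 0.10, adjusted p = 0.00339). In brain it had 185, 179, 185 and 193 in PBS and 177, 177, 186 and 173 in LPS mice (log2 difference -0.061, SE 0.095, adjusted p = 0.834). Rps20 was thus separated between the groups in lymph node and brown fat but not in brain. Rps18, which contacts the transfer RNA at the head of the small subunit, had 156, 170.2, 149 and 121 in PBS and 202, 191, 213 and 226 in LPS muscle (log2 difference 0.48, SE 0.12, adjusted p = 0.00626), without overlap. Rps25, a small subunit protein used by some viral internal ribosome entry sites, rose by 0.21 (bone marrow) to 0.38 (colon) where called. Its number of tissues was 2 to 4 without mouse 1, 2, 3, 4, 5, 7 or 8, and that of Rps18 was 5 without mouse 2, 3, 4, 5 or 7. Rps6 rose in brown fat, heart, skin, small intestine, liver and colon, by 0.27 to 0.61.

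The ribosomal stalk, which recruits the elongation factors, is made of Rplp0, Rplp1 and Rplp2. Rplp0 was higher in 5 tissues (brown fat, heart, spleen, colon and kidney, 0.22 to 0.35), Rplp1 in 2 (brown fat and heart) and Rplp2 in 2 (liver and spleen). Rpsa, also known as the laminin receptor precursor, was higher in 5 (small intestine, colon, heart, brown fat and spleen, 0.29 to 0.42). Rps27a, made as a fusion with ubiquitin, was higher in 4 (heart, skin, liver and brown fat, 0.36 to 0.42). Rpl5 and Rpl11, which bind Mdm2 together with the 5S RNA when ribosome assembly fails, were higher in 1 and 2 tissues. None of these 7 was lower in any tissue by limma.

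Several members fell in more than 1 tissue. Rps21 fell in lung and kidney, Rps27l in thymus and kidney, Rpl13a in kidney and white fat (-0.41), and Rpl10 in lymph node and lung. Rpl10, which joins the large subunit late in the cytoplasm, had 484, 455, 487 and 510.1 in PBS and 368, 347, 382 and 336 in LPS lymph nodes (log2 difference -0.43, SE 0.088, adjusted p = 0.0012). The groups did not overlap. In brown fat it was higher (0.40). Rps27 and Rps24 also fell in 2 tissues each and rose in 2 and 6.

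Rps24, mutated in Diamond-Blackfan anaemia and known for alternatively spliced 3′ ends, changed in opposite directions between tissues. In bone marrow it had 1154, 1186, 1232 and 1127 in PBS and 1416, 1777, 1679.9 and 1716 in LPS mice (log2 difference 0.48, SE 0.08, adjusted p = 5.77e-05). In skin it had 1075, 1061, 1053 and 1084 in PBS and 1762, 1326, 1528 and 1579.7 in LPS mice (log2 difference 0.53, SE 0.12, adjusted p = 0.00358). The PBS and LPS values were apart in both tissues. In white fat it had 792, 958, 978 and 1022 in PBS and 1392, 1659, 1149.8 and 1236 in LPS mice (log2 difference 0.53, SE 0.14, adjusted p = 0.0131; adjusted p = 0.0512 without mouse 6). In thymus it had 1717, 2549.7, 1528 and 1797 in PBS and 1398, 1512, 1395 and 1492 in LPS mice (log2 difference -0.36, SE 0.10, adjusted p = 0.00801; adjusted p = 0.144 without mouse 2). All 4 thymus values of LPS mice were below those of PBS mice. In spleen it had 1947, 2983, 3457 and 2455 in PBS and 2043, 2165, 1619 and 1805 in LPS mice (log2 difference -0.48, SE 0.14, adjusted p = 0.0157; adjusted p = 0.0654 to 0.11 without mouse 2, 3 or 7), with overlap. A moderated F test of the difference among tissues gave an adjusted p of 1.41e-08 for Rps24, the smallest of the 84 members. After LPS the thymus list had 8 of 8 genes lower in thymus and the B cell list 8 of 10 genes lower in spleen, and their part was not tested.

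**Figure D3:**
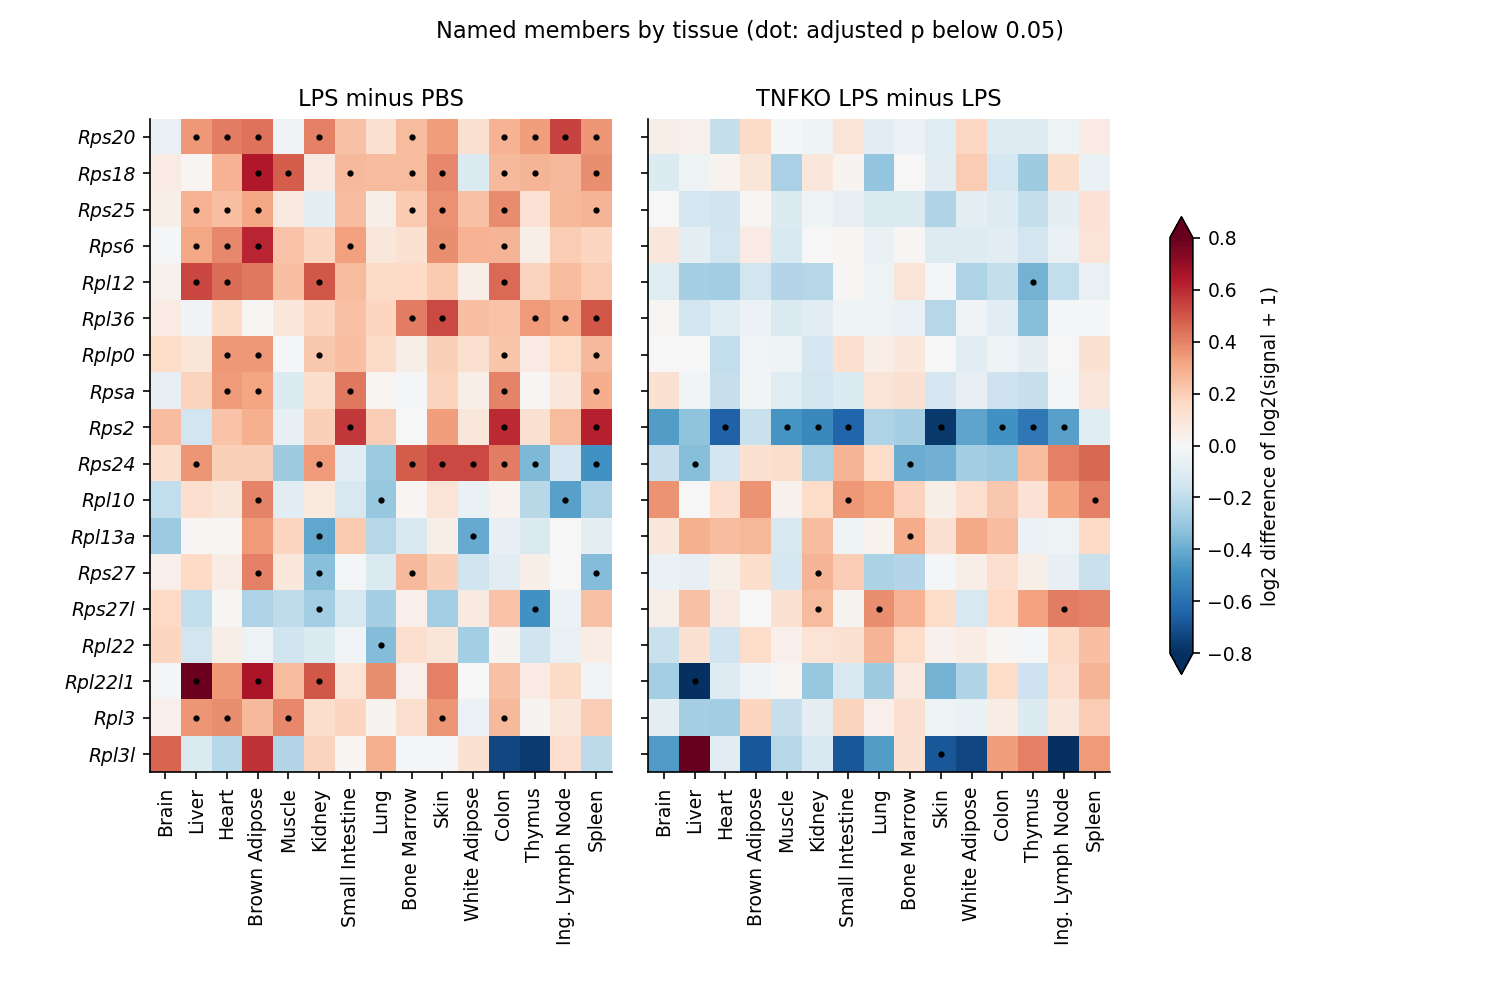
Log2 differences (colour scale, log2(signal + 1)) of members named in the text in 15 tissues, for LPS minus PBS and TNFKO LPS minus LPS; a dot marks an adjusted p under 0.05 by limma, and colours saturate at the ends of the scale. The row of Rps2 is below 0 in all 15 tissues between the genotypes, and the row of Rps24 holds both colours after LPS.

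Paralogues differed most among tissues. Within the summed signal of the members in PBS mice, a member's percent had a median SD of 0.214 (log2) across the 15 tissues, 81 of 84 had an SD under 0.5, and Rpl3l and Rps4l were the 2 above 1. Rpl3l, the striated muscle form of Rpl3, made up 0.963% of the members' signal in muscle and 0.423% in heart, against a median of 0.0135% over the tissues. Rps27l, a paralogue of Rps27 and a known p53 target, took 1.30% in liver, 1.11% in kidney and 0.179% in spleen. Rpl22l1 was highest in brain (0.457%). Rplp2 is no paralogue, but took 1.96% in brown fat against 0.97% in heart, its second tissue. The percent of each is compared with itself between tissues, since 3′ tags were not compared between genes.

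**Figure D4:**
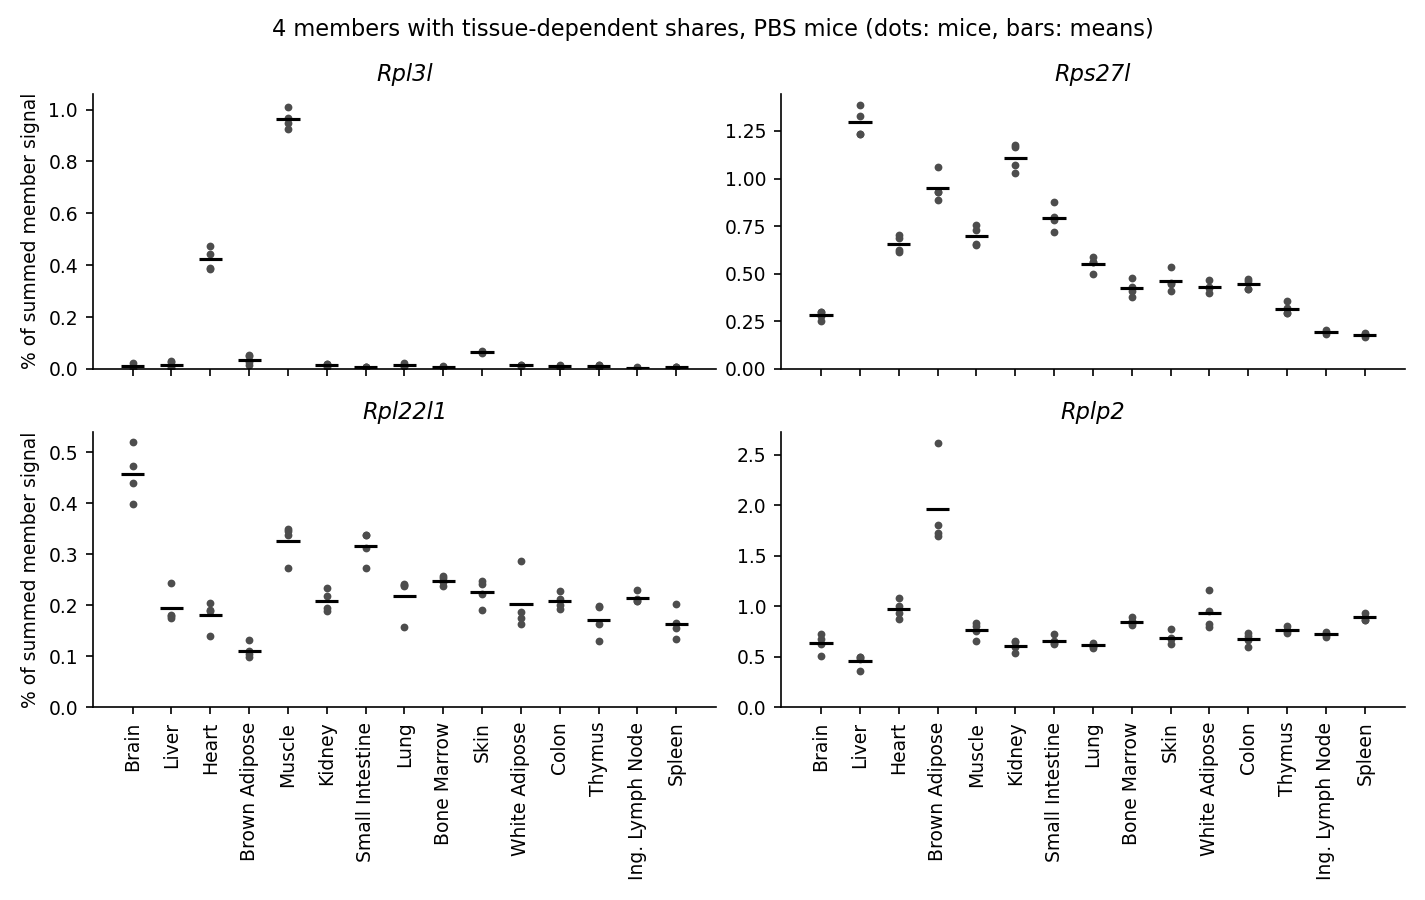
Percent of the members' summed signal (vertical axes, each from 0) taken by Rpl3l, Rps27l, Rpl22l1 and Rplp2 in 15 tissues of the PBS mice; points are mice and bars are means of 4. Rpl3l stands out in muscle (0.963%) and heart (0.423%), Rps27l in liver and kidney, Rpl22l1 in brain and Rplp2 in brown fat.

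Rpl22l1, the paralogue whose amount is held down by its parent Rpl22, had the largest rise after LPS. In liver it had 68.0, 98.8, 63.2 and 63.5 in PBS and 133, 137, 111 and 120.0 in LPS mice (log2 difference 0.79, SE 0.16, adjusted p = 0.000383). In TNFKO LPS livers it had 65.9, 55.7, 83.5 and 69.3 (log2 difference -0.87, SE 0.16, adjusted p = 0.000395 against LPS). The LPS livers lay above both other groups. In brown fat it had 28.8, 37.6, 33.1 and 43.5 in PBS and 64.8, 60.9, 51.1 and 48.9 in LPS mice (log2 difference 0.65, SE 0.18, adjusted p = 0.012). The parent Rpl22 was lower in 1 tissue, the lung, with 193, 192, 214 and 178 in PBS and 149, 171, 146 and 144 in LPS mice (log2 difference -0.35, SE 0.11, adjusted p = 0.0229). That call was lost without some single mice (adjusted p = 0.0529 to 0.0897 without mouse 3, 5, 7 or 8).

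Rpl7l1, a paralogue of Rpl7 that acts in the maturation of the large subunit, had 64.0, 62.4, 59.5 and 61.7 in PBS and 95.3, 103, 92.5 and 107 in LPS livers (log2 difference 0.67, SE 0.15, adjusted p = 0.00069), with no overlap. Rpl7 itself was not called in any tissue. Rps27l had 171, 197, 157 and 181 in PBS and 139, 119.9, 109 and 137 in LPS thymi (log2 difference -0.48, SE 0.11, adjusted p = 0.00108), and the LPS values were all lower. Its parent Rps27 was higher in brown fat (0.40) and bone marrow (0.26) and lower in spleen and kidney (-0.33). Rps4l, a processed copy of the X-linked Rps4x, had the largest fall. In small intestine it had 59.3, 52.0, 57.2 and 58.4 in PBS and 27.7, 29.9, 28.6 and 21.3 in LPS mice (log2 difference -1.06, SE 0.14, adjusted p = 9.8e-06). The LPS values were all below the PBS values, while Rps4x was not called in any tissue. Rpl3l was not called after LPS in any tissue. In muscle it had 376, 390.0, 366 and 340.4 in PBS, 326, 234, 383 and 326 in LPS and 268, 249, 267 and 284 in TNFKO LPS mice, with overlap between PBS and LPS. In heart it had 146, 159, 127 and 144 in PBS, 107, 125, 137 and 124 in LPS and 118, 124, 95.7 and 127 in TNFKO LPS mice, and the LPS values overlapped with both other groups.

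Between the genotypes few members differed. Of 1260 tests, 13 (1.03%) were higher in TNFKO LPS than in LPS mice, against a background of 3.24%, and 16 (1.27%) were lower, against 2.32%. In all, 67 of 84 members were never called. The share of calls that were higher depended on the scaling: it was 44.8% here, and 20.9% with median-of-ratios factors (9 higher, 34 lower). The total of higher calls was 20 without mouse 6, 8 without mouse 7, 5 without mouse 8, 7 without mouse 11 and 6 without mouse 12. Rps2 alone gave 8 of the 16 lower calls. Spleen had 5 members higher, against 2.56% of all genes, and small intestine 2 higher (4.47%) and 1 lower (2.65%). Kidney had 2 higher (13.2%) and 1 lower (6.82%), and thymus 1 higher (2.3%) and 2 lower (2.16%). Lymph node had 1 higher (1.72%) and 1 lower (1.4%), bone marrow 1 higher (2.57%) and 1 lower (3.55%), and lung 1 higher (3.71%). Liver had 4 lower (3.43%), heart 2 (2.35%), skin 2 (1.36%), colon 1 (1.31%) and muscle 1 (2.16%). In brain, brown fat and white fat 0 members were called by limma, where 1.02%, 2.94% and 2.86% of all genes were. At an unadjusted p under 0.05 brain had 1 higher and 3 lower, brown fat 6 higher and white fat 1 higher and 3 lower. DESeq2 called 1 member in brain and 2 in brown fat, and edgeR 1 and 3, all higher. The count tools gave other numbers in heart and kidney. In heart 8 members were lower by DESeq2 and 11 by edgeR. In kidney 6 were lower by DESeq2 and 8 by edgeR, and 0 were higher by either, against 2 higher by limma and 4 at an unadjusted p under 0.05.

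Rps2 was lower in TNFKO LPS than in LPS mice in all 15 tissues, with a median log2 difference of -0.45, and passed the threshold in 8. In heart it had 302, 278, 307 and 304 in LPS (mice 5 to 8) and 189, 177, 173 and 223 in TNFKO LPS mice (mice 9 to 12; log2 difference -0.65, SE 0.091, adjusted p = 3.08e-05). In kidney it had 198, 224, 186 and 197 in LPS and 127, 142, 143 and 149 in TNFKO LPS mice (log2 difference -0.52, SE 0.09, adjusted p = 0.000159). In thymus it had 227, 189, 197 and 219 in LPS and 139.9, 158, 144 and 119 in TNFKO LPS mice (log2 difference -0.57, SE 0.11, adjusted p = 0.00039). The groups were apart in each of these 3 tissues, and each call stayed without any 1 mouse. In skin it had 251, 257, 227 and 225 in PBS, 319, 277, 286 and 329 in LPS and 154, 167, 179.9 and 211 in TNFKO LPS mice (log2 difference -0.77, SE 0.12, adjusted p = 0.001). In small intestine it had 236, 227, 191 and 224 in PBS, 300.4, 320.4, 345 and 333 in LPS and 201, 225, 195 and 215 in TNFKO LPS mice (log2 difference -0.63, SE 0.097, adjusted p = 0.000235). In colon it had 229.9, 248, 221 and 258 in PBS, 362, 334, 400.3 and 357 in LPS and 248, 253, 285 and 249 in TNFKO LPS mice (log2 difference -0.49, SE 0.091, adjusted p = 0.0015). In these 3 tissues too the LPS and TNFKO LPS values were apart. In muscle it had 279, 244, 300.5 and 330.3 in LPS and 197, 202, 188 and 243 in TNFKO LPS mice (log2 difference -0.47, SE 0.12, adjusted p = 0.0125; adjusted p = 0.0526 to 0.0737 without mouse 8 or 11). In lymph node it had 321, 257, 306 and 306 in LPS and 193, 241, 226 and 219.7 in TNFKO LPS mice (log2 difference -0.44, SE 0.10, adjusted p = 0.0248; adjusted p = 0.0587 to 0.0863 without mouse 5, 7, 8, 9, 11 or 12). The calls in muscle and lymph node were thus lost without some single mice.

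Where Rps2 was not called between the genotypes, values still lay below 0. In spleen it had 534, 490.2, 510.3 and 400.3 in LPS and 497, 450.4, 427 and 429 in TNFKO LPS mice (log2 difference -0.10, SE 0.10, adjusted p = 0.702), with PBS mice at 318, 283, 343 and 308. In liver it had 279.9, 258, 266 and 251 in PBS, 222, 249, 241 and 235 in LPS and 199, 147, 223 and 197 in TNFKO LPS mice (log2 difference -0.32, SE 0.12, adjusted p = 0.0954). The LPS and TNFKO LPS values overlapped in spleen and in liver. Over all tissues the TNFKO LPS values lay below all LPS values in 9 and below all PBS values in 7. LPS itself raised Rps2 in 3 tissues: colon (log2 difference 0.60, SE 0.091, adjusted p = 1.5e-05), small intestine (log2 difference 0.57, SE 0.097, adjusted p = 0.000165) and spleen (log2 difference 0.62, SE 0.10, adjusted p = 2.32e-05). The number of tissues raised was 7 by DESeq2, by edgeR and with median-of-ratios factors, and 6 without mouse 6. The 2 comparisons share the LPS mice. Across other scalings, tools, filters and left-out mice, Rps2 was below 0 in 15 of 15 tissues and called in 6 to 9.

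**Figure D5:**
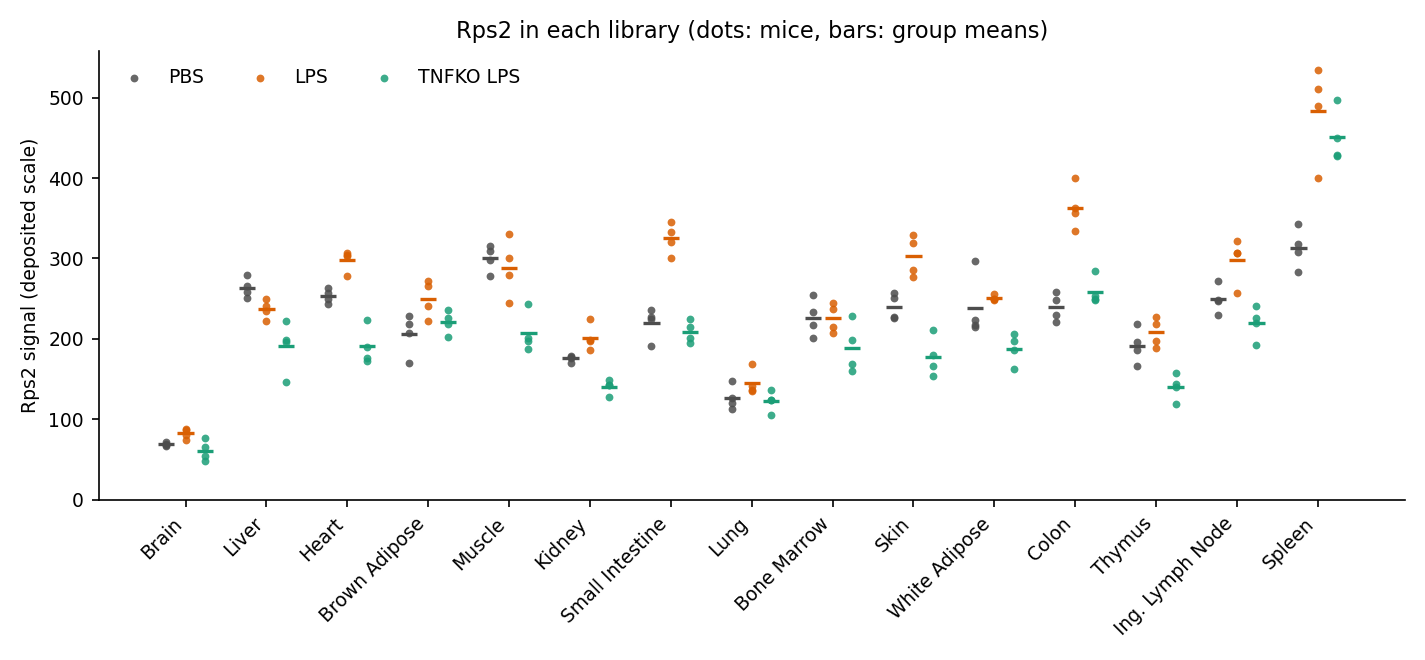
Signal of Rps2 (vertical axis) in each mouse of the 15 tissues, by group (PBS, LPS, TNFKO LPS; 4 mice each), with bars at the group means. TNFKO LPS points lie below all LPS points in 9 tissues and below all PBS points in 7.

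Rps2 and Tnf lie on the same chromosome. Rps2 is annotated at chr17:24718116-24721929 on the plus strand (GENCODE M21, GRCm38), 10.48 Mb from Tnf. The other 7 members on this chromosome, Rpl3l, Rpl7l1, Rpl10a, Rpl36, Rps10, Rps18 and Rps28, gave 105 tests between the genotypes, of which 1 was called by limma (Rpl3l, lower in skin). Rps18 (1.25 Mb from Tnf) and Rps28 (1.38 Mb) lie closer to Tnf than Rps2 and were not called in any tissue, with medians of -0.04 and -0.018. For genes of this chromosome other than Tnf and the members, 8.39% of tests were called within 5 Mb of Tnf and 7.13% from 5 to 10 Mb. From 10 to 15 Mb it was 7.04%, and 6.73% farther along the chromosome. The 8 calls of Rps2 and the 1 of Rpl3l, both from 10 to 15 Mb, are thus not in these numbers. On other chromosomes, members included, 5.49% of tests were called. Whether the sequence of Rps2 differs between the strains was not tested.

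The 97 bases before the RefSeq start of Rps2 (chr17:24719966-24720062, plus strand, GRCm38.p6) are shown because the gene was lower in every tissue. Capitals mark GGGCGG, a GC box.
Rps2 upstream: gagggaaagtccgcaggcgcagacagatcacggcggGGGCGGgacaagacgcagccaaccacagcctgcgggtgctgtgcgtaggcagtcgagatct
Searched on both strands, this window held GGGCGG at 1 place. The motif TATAAA was not found in it, and neither was CGGAAG. Among 97-base windows before RefSeq starts, GGGCGG was found in 31.5% of the 73 windows of members and 24.3% of all 32851 windows, and CGGAAG, a core of ETS family sites, in 28.8% and 8.05%. TATAAA was found in 2.74% and 5.45%.

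The antisense gene Snhg9, a host of a small nucleolar RNA, lies at chr17:24719531-24719965 on the minus strand, within the GENCODE span of Rps2 and directly before its RefSeq start. It was also below 0 in all 15 tissues (median -0.89, range -1.48 to -0.18) and called lower in 8. The sources used here do not say whether counting used the strand, so reads from within the overlap cannot be assigned to 1 of the genes. The 3′ ends, which these libraries report, are annotated at 24719531 for Snhg9 and 24721929 for Rps2. Whether the rows share reads was not tested. Of the 10 genes in the table that start within 100 kb of Rps2, that gene included, Rps2 and Snhg9 were the 2 below 0 in all tissues. Slc9a3r2, 78.8 kb away, was higher in 5. Msrb1 was lower in 5 and higher in 1, and Ndufb10 was higher in 3. The near-identical row Rps2.ps10, a processed copy on another chromosome, was lower in 3 tissues (colon -0.37, kidney -0.50 and skin -0.45) with a median of -0.12. After LPS this copy was higher in 5 tissues. These were heart (0.30), kidney (0.40) and the 3 where LPS raised Rps2, spleen (0.53), colon (0.50) and small intestine (0.49). Whether the row of the copy holds reads of Rps2 was not tested. Among all genes, 21 were below 0 in 15 tissues and called lower in at least 8, Rps2 and Snhg9 among them. The cut-offs of 15 and 8 are the values of Rps2 itself. Of the 21, 6 lie on the chromosome of Rps2 and Tnf, and Rps2 and Snhg9 are 2 of these 6. On this chromosome lie 614 of the 13538 genes with a position, which include genes not tested in all 15 tissues. Because Rps2 set the cut-offs, the 6 cannot be read against that share. Rnaset2b, on this chromosome 28.2 Mb from Tnf, was called lower in 15 of 15 tissues. So were Cirbp and Rbm3, cold-inducible RNA-binding proteins on other chromosomes.

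Other members that differed between the genotypes did so in 1 to 3 tissues. In spleen 5 were higher, as given above, among them Rpl39, Rpl15 (0.48), Rpl10 and Rps13 (0.39). Rpl10 had 521, 555, 462 and 503 in LPS and 654, 671, 699 and 674 in TNFKO LPS spleens (log2 difference 0.41, SE 0.088, adjusted p = 0.00533), without overlap. Rpl39, which lines the exit tunnel, had 1602, 1475, 1316 and 1329 in LPS and 1722, 2474, 2436 and 1585 in TNFKO LPS spleens (log2 difference 0.50, SE 0.11, adjusted p = 0.00765; adjusted p = 0.0508 to 0.0603 without mouse 10 or 11), with overlap. The median of the members in spleen was 0.15, against 0.039 over all genes, and 74 of 84 were above 0. The spleen count was 3 without mouse 11, 8 without mouse 5 and 9 without mouse 6. In small intestine Rpl10 (0.35) and Rpl39 (0.33) were higher too.

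Rps27l was higher in TNFKO LPS mice in 3 tissues, the most of any member. In lymph node it had 163, 134, 121 and 133 in LPS and 171, 200.4, 195 and 166 in TNFKO LPS mice (log2 difference 0.41, SE 0.11, adjusted p = 0.0435; adjusted p = 0.0573 to 0.17 without mouse 6, 7, 8, 10, 11 or 12). In lung it had 165, 135, 176 and 165 in LPS and 212, 226, 181 and 210.1 in TNFKO LPS mice (log2 difference 0.37, SE 0.11, adjusted p = 0.0497; adjusted p = 0.0753 to 0.125 without mouse 5, 6, 8, 9, 10 or 12). Both calls lay close to the threshold, although the groups were apart. In kidney it was higher by 0.26, with overlap, beside Rps27 (0.27), and neither kidney call was made by DESeq2 or edgeR. The calls of Rps27l rested on the fit over all 3 groups: by DESeq2 and by edgeR it was higher in 1 tissue, and with the LPS and TNFKO LPS mice alone in 0 by limma.

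In liver 4 members were lower in TNFKO LPS than in LPS mice, among them Rpl22l1 as above, Rpl38 (-0.41) and Rps24 (-0.34). The liver count was 1 without mouse 6, 7 or 10 and 2 without mouse 8, 11 or 12. These 4 were also among the 19 raised by LPS in liver, and the LPS livers serve both comparisons. In bone marrow Rps24 had 1218, 1184, 1237 and 1351 in TNFKO LPS mice, below the LPS values given before (log2 difference -0.40, SE 0.08, adjusted p = 0.0034), and Rpl13a was higher (0.30). In skin Rpl3l had 29.2, 29.4, 24.2 and 30.2 in LPS and 18.0, 17.5, 14.1 and 19.9 in TNFKO LPS mice (log2 difference -0.68, SE 0.17, adjusted p = 0.0328; adjusted p = 0.0585 to 0.0845 without mouse 5, 8, 9, 10 or 11). Skeletal muscle markers in the same skins summed to 12401 to 19145 in LPS and 7423 to 15815 in TNFKO LPS mice, and their part was not tested. In thymus Rpl12 was lower (-0.38) and Rpl27 higher (0.37, with overlap), and in heart Rps27a was lower (-0.31).

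Whether a member's change differed among tissues was tested in 1 fit over all 180 libraries by a moderated F test over 14 tissue differences. For LPS against PBS 65 of 84 members passed, against 65.3% of all genes. After Rps24 the smallest adjusted p-values were those of Rpsa (3.25e-08), Rps9 (5.54e-08) and Rps2 (5.3e-07). For TNFKO LPS against LPS 20 members passed, against 25.6% of all genes, led by Rps24 (2.96e-05), Rpl39 (0.000112), Rpl22l1 (0.000393), Rpl27 (0.000749), Rps28 (0.000881) and Rps2 (0.00139). So the size of the Rps2 difference between the genotypes varied among tissues, while its sign did not. With median-of-ratios factors 33 members passed in this second comparison, against 26.5% of all genes.

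The pyrimidine run at the start can be set beside the calls. The 35 members with a run gave 78 higher and 15 lower LPS calls in 525 tests (median change 0.11), and the 26 without gave 50 and 4 in 390 (median 0.078). Between the genotypes these were 8 and 13 against 4 and 1, and Rps2 alone, which has a run, gave 8 of the 13. The difference between these sets was not tested.

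The other genes of ribosome production and translation were counted by lists, to be read against the 9.47% of all gene tests that were higher after LPS and the 10.4% that were lower. Ribosome biogenesis factors (47 genes in the table) were higher after LPS in 246 of 705 tests and lower in 21, with a median of the tissue medians of 0.42, where medians over all genes ranged from -0.06 to 0.062. Ncl, the nucleolar protein nucleolin, was higher in 13 of 15 tissues, Gnl3, a nucleolar GTPase of dividing cells, in 12, and Ddx21, a nucleolar helicase, in 11. In spleen 35 were higher, and in liver 23 were higher and 1 lower. In thymus 14 were lower, Gnl3 among them (-0.51), the 1 tissue where it was lower. A proliferation list had 19 of 20 genes lower in the same thymi, and its part was not tested. In TNFKO LPS livers 14 biogenesis factors were lower than in LPS livers, against 3.43% of all genes.

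Translation initiation factors (24 genes) were higher after LPS in 104 of 360 tests and lower in 18. Eif1a, which helps the scanning ribosome find the start codon, was higher in 13 tissues, and Eif6, which keeps the large subunit from joining too early, in 11, with its largest rise in kidney (1.86). Eif4a2 gave 8 of the 18 lower calls, while its close relative Eif4a1 was higher in 10 tissues. Between the genotypes Eif4a1 was lower in 7 and higher in 1, where 2.32% and 3.24% of all gene tests were. Elongation factors and other TOP mRNAs (25 genes), which share the motif of the ribosomal proteins, were higher in 64 of 375 tests and lower in 24, led by Npm1 (11 tissues) and Pabpc1 (9). Npm1 is a nucleolar chaperone and Pabpc1 binds the poly(A) tail.

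Regulators of translation (mTORC1 and translational control, 21 genes) were higher in 61 of 315 tests and lower in 17. They were led by Eif2ak2, the interferon-induced kinase PKR, in 13 tissues, and by Ddit4, an inhibitor of mTORC1, in 11. RNA polymerase I genes were higher in 19 of 180 tests, a share near that of all genes, and lower in 10, and the Myc network in 20 and 14 of 105, with Myc itself higher in 8.

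Mitochondrial ribosomal proteins (77 genes), which serve the other ribosome of the cell, were called lower in 187 and higher in 52 of 1155 tests after LPS. In brown fat 43 were lower (against 9.28% of all genes), in kidney 35 with 1 higher (against 21.9% lower) and in heart 24 (against 12.3%), the last in the tissue where 37 cytosolic members were higher. Between the genotypes 64 tests were higher and 5 lower, against 3.24% and 2.32% of all gene tests. Of the higher ones 24 were in kidney, where 13.2% of all genes were higher. The mitochondrially encoded share in kidney was 12.2% to 14.3% in PBS, 9.07% to 9.90% in LPS and 9.51% to 10.7% in TNFKO LPS mice, and its part was not tested.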

How the data were processed

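The data were 3′ tag RNA libraries from 15 tissues of 12 mice. The deposited tables are named for CPM, but the values do not sum to the same total in each library, so they were treated as a signal scaled by the authors. The submitters' processing notes name edgeR, FastQC and MultiQC, without versions, and the build mm10. The aligner and the use of the 10 bp UMI in counting are not stated there. Whole counts were recovered from the signal of each library, with at least 99.99% of values within 0.1 of a whole number.

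The members and the gene lists were chosen with earlier results of these data known. Named genes were the paralogues, Rps2 and other members on its chromosome, those called in the most tissues, the largest changes per tissue and members with special roles; a subset is named, with the Rps2 neighbours added after their values were seen. In each tissue limma 3.58.1 (R 4.3.3, trend) was fitted to log2(signal + 1) over 12 libraries, keeping genes that reached a signal of 1 in 4 or more of them, with Benjamini-Hochberg adjustment over all genes tested and a threshold of 0.05. The 3 groups shared 1 estimate of the spread (9 residual degrees of freedom). Fold values are thus on the log2(signal + 1) scale, which understates changes of low genes. Whether a change varied with the tissue was tested in 1 limma fit of 45 groups. The scripts were tested on simulated data. Shares were not tested. Some single-gene results are not reported here.

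Alternatives were pseudocount 0.25, no filter, median-of-ratios factors, counts scaled to their plain total, 2 groups only, a threshold of 0.01, each mouse left out, mouse as a block, and DESeq2 1.42.0 and edgeR 4.0.16 on the recovered counts. P-values measure the spread between mice of 1 experiment. Depth was 311128 to 2573806 counts per library, and intervals of counting error were not added to the spread between mice. Promoter sequence was from RefSeq (GRCm38.p6) and gene positions from GENCODE M21.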

Additional observations from a re-analysis of the deposited data

Results flagged for a closer look

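In 136 groups of 4 mice the highest and lowest values were compared with Dixon's 95% critical value, which chance passes in about 1 in 20 groups, and 6 groups passed. In inguinal lymph node the ribosomal protein share of LPS mouse 5 (10.1%) stood apart from the other 3 LPS mice, the only 1 of 45 groups of shares to do so. Rps2 in heart had 1 LPS mouse at 278, below the other 3, which were at 302, 278, 307 and 304 with it. Rps2 in colon had 1 TNFKO LPS mouse at 285, above the others. Rpl22l1 in liver had 1 PBS mouse at 98.8, still below the LPS mice. Rpl22 in lung had 1 LPS mouse at 171 and Rpl3l in skin 1 LPS mouse at 24.2, each apart from the other 3.

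By the moderated F test over tissues, the LPS change differed among tissues for 65 of 84 members, against 65.3% of all genes. The difference between the genotypes did so for 20, against 25.6% of all genes. For Rps24 the adjusted p-values from limma were 1.41e-08 and 2.96e-05, and for Rps2 5.3e-07 and 0.00139, in that order. Among all 13820 genes Rps24 ranked 1820 and 477 by p-value, and Rps2 2464 and 1177. Rps24 was higher after LPS in bone marrow and skin and lower in thymus and spleen. Rps2 was below 0 between the genotypes in every tissue, from near 0 in spleen (-0.10) to -0.77 in skin.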

How the results depend on the processing

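None of the 207 member calls after LPS, nor of the 29 between the genotypes, changed sign under any alternative run. Of the 207, 202 were kept by edgeR, 190 by DESeq2 and 147 to 179 when 1 mouse was left out, and of the 29, 24, 23 and 15 to 23. Of the 41 calls printed with their values, 30 were kept without each mouse. The 300 alternatives for the shares stayed within 1 SD. For those that left out 1 mouse this was bound to happen, since dropping 1 mouse cannot move a group mean that far. They therefore do not show whether the shares are robust.

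Calls higher after LPS numbered 87 at the threshold of 0.01, and calls lower 12 there and 41 on the plain total. Between the genotypes 4 were higher and 8 lower at 0.01, and 32 were lower by DESeq2, 41 by edgeR and 34 with median-of-ratios factors. Leaving out 1 mouse gave 5 to 20 higher and 11 to 20 lower calls. The members whose difference between the genotypes varied among tissues numbered 33 with median-of-ratios factors, against 26.5% of all genes. The cause of these shifts was not tested.

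Median log2 changes of the members moved mainly with the scaling. On the plain total those after LPS were 0.182 in bone marrow, 0.1306 in colon, 0.2949 in small intestine and -0.165 in white fat, and those between the genotypes 0.1116 in bone marrow, 0.0152 in heart, -0.0471 in small intestine and 0.1236 in white fat. That scaling shifted the median of all genes by 0.14 and -0.16 after LPS in small intestine and white fat, and by 0.10, -0.11 and 0.13 between the genotypes in heart, small intestine and white fat. By DESeq2, edgeR and median-of-ratios factors, in that order, the brain median after LPS was 0.0558, 0.0545 and 0.0549. Between the genotypes the heart median was -0.1465, -0.1369 and -0.141 and the small intestine median 0.0361, 0.0421 and 0.0313. The kidney medians by DESeq2 were 0.051 after LPS and -0.0845 between the genotypes.

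The groups of a tissue are different mice, so no pairing exists within a tissue. With mouse as a block in the fit over all tissues (consensus correlation 0.0159), 66 and 23 members differed among tissues, against 65 and 20 without it. Of all genes 66.3% and 26.7% did so with the block. Alternatives chosen after seeing the data left out libraries with markers of other tissues. Without TNFKO LPS mice 10 and 12 in white fat, whose T cell markers (mouse 10) and exocrine pancreas markers (mouse 12) stood high, 0 members were called between the genotypes by limma, as with all mice. Without PBS mouse 1 in small intestine, 1 member was higher and 1 lower between the genotypes. With 4 mice a group and changes mostly under 0.5 on the log2 scale, members at few counts, such as Rpl22l1 and Rps4l, carry more counting error than the abundant ones.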
